A study of Mus musculus with 14 samples.

Results

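The 9 genes described here are neural-type genes that hepatic stellate cells, which line the sinusoid and store vitamin A, are known to express or have been examined for: Ngfr, Bdnf, Ntf3, Ntrk2, Ntrk3, Gfap, Nes, Ncam1 and Reln. They were taken by name, and all 9 had a row in the bulk tables (of 35171 gene rows) and in the single-cell matrix (of 28692 genes). Neurotrophins are secreted growth factors best known for keeping neurons alive. Each binds a receptor tyrosine kinase of the Trk family, and all of them also bind the p75 receptor encoded by Ngfr. Reelin, the product of Reln, is a large secreted glycoprotein that guides migrating neurons through the receptors ApoER2 and VLDLR. Glial fibrillary acidic protein, nestin and the adhesion molecule NCAM, encoded by Gfap, Nes and Ncam1, are glial or neural markers that have also served as markers of stellate cells.

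The bulk data were 13 TruSeq RNA libraries from mouse liver. In 3 libraries, stellate cells of strain Balbc had been cultured for 24 h with 10 µM UDP-glucose, a nucleotide sugar that activates the receptor P2Y14, and in 3 libraries the same kind of culture was left untreated. Sample titles of the treated libraries say UDP, while their descriptions and treatment entries say UDP-glucose, which is the name used here. Both sets of cultures had been plated for 5 h in 10% serum and then kept in 0.1% serum, and no cell sort is described for them. The other bulk libraries were 4 of unplated quiescent stellate cells and 3 of whole uninjured liver, both labelled LratCre+, TdTom+ in C57BL/6J, so both carry the Cre driven by Lrat, a gene of vitamin A storage. The quiescent cells had been sorted for vitamin A and TdTom. The labels do not say that replicate libraries are different mice, and each p-value therefore reflects library-to-library spread, which may be technical. A single-cell library (10x 3′ v2) was made from cells of normal C57BL/6 liver after digestion. Age and sex of the mice are not stated in the labels. The series asks how P2Y14 links hepatocyte death to stellate cell activation.

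Between 9941 and 12434 genes reached 1 TPM (an abundance scaled for transcript length and depth) in a bulk library, and the correlation between libraries of a group lay between 0.981 and 0.991 over 12931 genes. All 15 stellate markers examined averaged at least 1 TPM in UDP-glucose cultures, control cultures and quiescent cells. Their summed level was 10033 to 11180.0 TPM in UDP-glucose cultures, 12154 to 13021 TPM in control cultures, 71776 to 79362 TPM in quiescent cells and 88.8 to 205 TPM in liver. Genes of other cells were also present in the sorted quiescent cells: the 10 sinusoidal endothelial markers summed to 416 to 1004 TPM there, against 72.8 to 77.7 TPM in UDP-glucose cultures, 89.6 to 103.8 TPM in control cultures and 33.5 to 88.4 TPM in liver. The 10 Kupffer cell markers summed to 89.5 to 186 TPM in quiescent cells, but to at most 1.40 TPM in cultures.

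The members fell into 3 patterns in bulk. Ngfr, Ntf3, Gfap and Reln were higher in quiescent cells than in liver and in both kinds of culture, and were low in liver. Bdnf and Ntrk3 were below 1 TPM in quiescent cells and higher in culture, and Bdnf was higher again with UDP-glucose. Nes overlapped between quiescent cells and control cultures and was below 0.3 TPM in liver, while Ntrk2 and Ncam1 stayed near or below 1 TPM in every library.

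**Figure D1:**
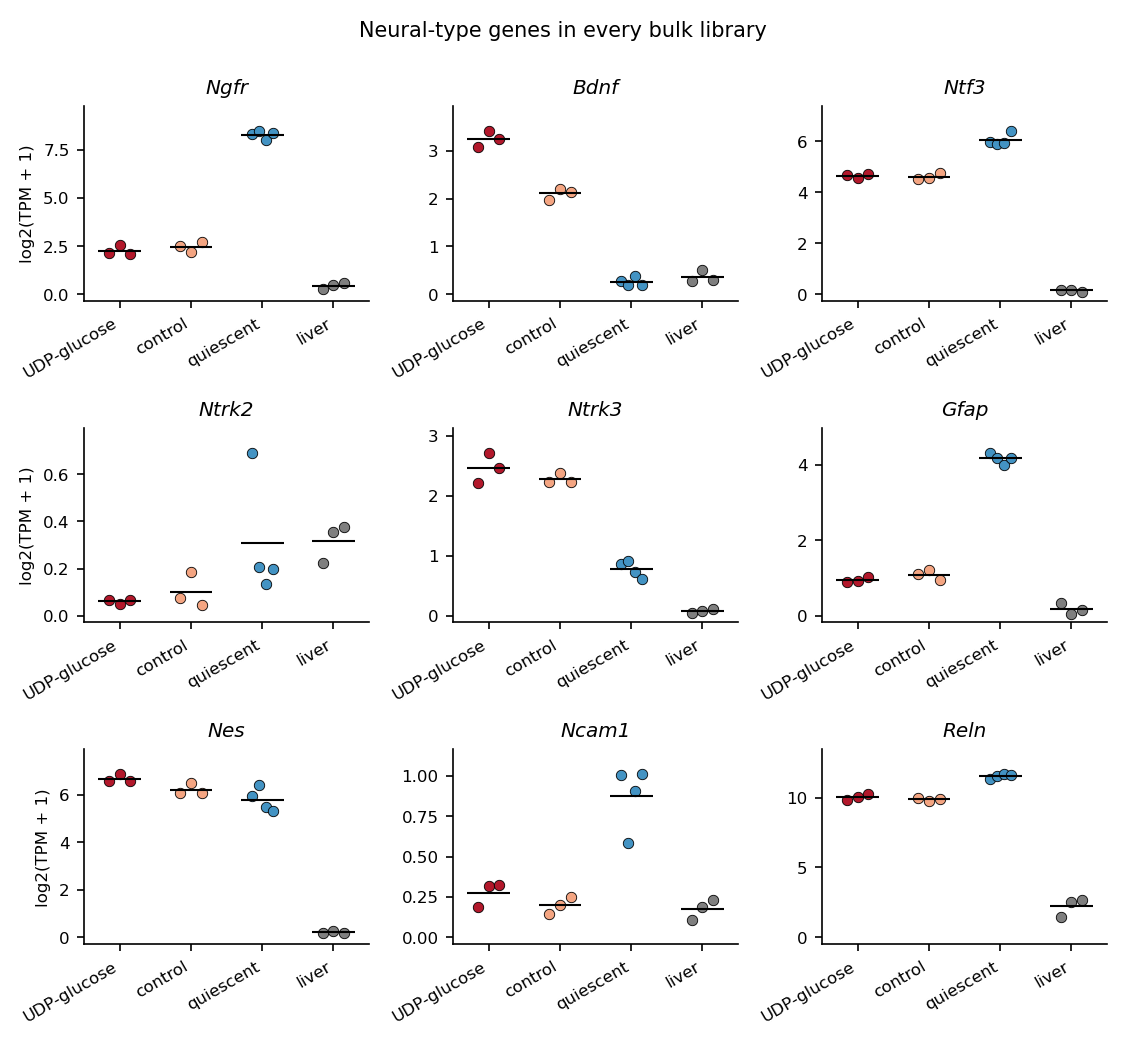
Level of the 9 neural-type genes in each of the 13 bulk libraries, as log2(TPM + 1) on separate vertical scales, with UDP-glucose cultures, control cultures, quiescent cells and whole liver from left to right. Points are libraries and lines are group means. The 4 quiescent libraries stand above all others for Ngfr, Ntf3, Gfap and Reln, whereas Bdnf is highest in the 3 UDP-glucose libraries.

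Set against whole liver, 5 of the members passed the expression filter, which asked for 1 TPM on average across both groups' libraries, and all 5 rose in quiescent cells. Ngfr, Ntf3, Gfap and Nes averaged 0.343, 0.104, 0.134 and 0.160 TPM in liver, so these 4 passed the filter only through the quiescent libraries and their count is a description with no weight of its own. Calls were made with limma on log2(TPM + 1) at a Benjamini-Hochberg adjusted p under 0.05 and a log2 fold change of at least 1 in size. By the same rule 67.0% of the 12643 genes tested rose and 10.9% fell, with a median log2 fold change of 1.62, so a rise by itself was the common outcome there. The 2 groups did not overlap for 91.1% of the genes tested. With libraries rescaled by median-of-ratios size factors the share of rises among calls was 55.1%, and with quantile normalisation 54.7%, against 86.0% with TPM as deposited. Relative to the median of all genes, the members' log2 fold changes were 7.72 for Reln, 6.25 for Ngfr, 4.27 for Ntf3, 3.95 for Nes and 2.37 for Gfap. All 5 kept their call under every alternative tried. Sort and table both differ between these groups and cannot be told apart from the cell source.

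In control cultures against quiescent cells, 7 members were tested. Bdnf and Ntrk3 rose, and Ngfr, Ntf3, Gfap and Reln fell. Bdnf and Ntrk3 averaged 0.197 and 0.719 TPM in quiescent cells and passed the filter only through the cultures where they are high. Over all 12537 genes tested, 18.6% rose and 13.2% fell, with a median log2 fold change of 0.26. The 2 groups did not overlap for 70% of the genes tested. The share of rises among calls was 40.3% after median-of-ratios rescaling and 48.2% after quantile normalisation, against 58.6% with TPM as deposited, and the 6 members' calls held in each case. Strain, sort, culture and table all differ between these groups and cannot be told apart. In bulk RNA, fewer cells of a type and less RNA of a gene per cell cannot be told apart either.

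In UDP-glucose against control cultures, which stand in 1 table and share strain and handling, 7 members were tested and Bdnf rose. There the call needed an adjusted p under 0.05 with no fold minimum, and 0.428% of 12161 genes rose and 0.181% fell. The share of rises among calls was 82.9% after median-of-ratios rescaling, against 70.3% with TPM as deposited.

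**Figure D2:**
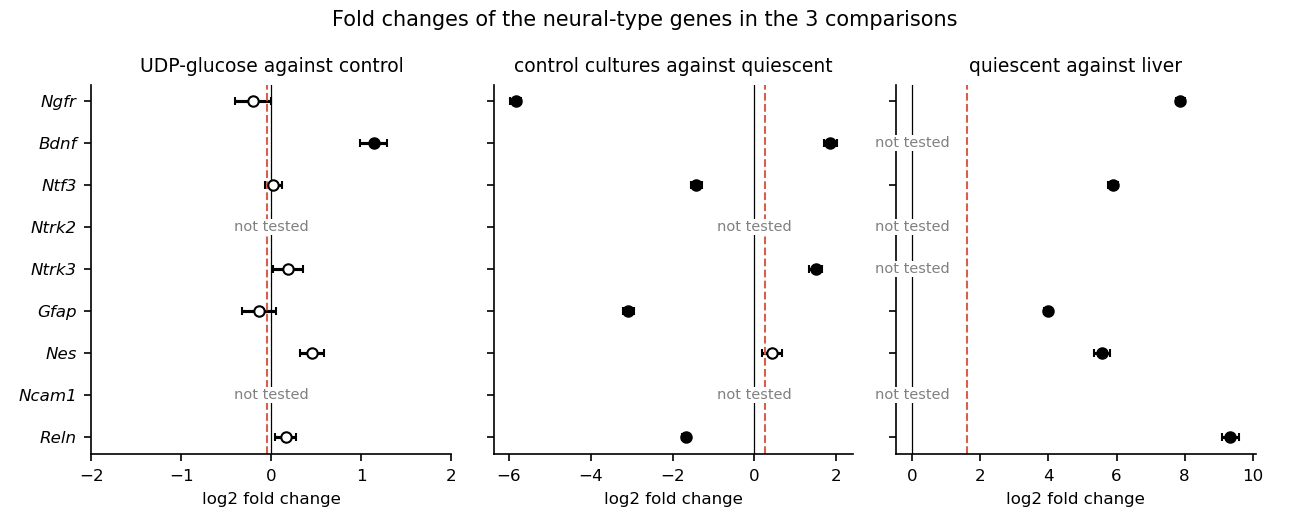
Log2 fold changes of the members on the log2(TPM + 1) scale, with standard errors, for UDP-glucose over control cultures, control cultures over quiescent cells and quiescent cells over whole liver. Filled points passed the test of that comparison, open points did not, genes under the filter are marked as not tested, and the dashed line is the median of all genes tested (-0.05, 0.26 and 1.62). Bdnf is the only filled point in the left panel.

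Ngfr encodes p75, the receptor shared by all neurotrophins and by their uncleaved precursors. The gene lies on the minus strand at chr11:95568818-95587735 (GRCm38), and no exon base is shared with another annotated gene. Ngfr had 3.34, 4.82 and 3.30 TPM in UDP-glucose cultures, 4.74, 3.54 and 5.42 TPM in control cultures, 315, 352, 261 and 334 TPM in quiescent cells, and 0.194, 0.371 and 0.465 TPM in liver. The quiescent libraries stood far above all others, both sets of cultures overlapped, and every culture was above every liver library. Of all genes tested, 91.1% did not overlap between quiescent cells and liver, and 70% between control cultures and quiescent cells. Ngfr ranked 475th of the 12263 genes above 1 TPM in quiescent cells and 10119th of 12218 in control cultures. It was 69.0-fold lower in mean TPM in control cultures than in quiescent cells, with a log2 fold change of -5.83 (limma, SE 0.14, adjusted p = 4.69e-09). Between UDP-glucose and control cultures the log2 fold change was -0.21 (limma, SE 0.20, adjusted p = 0.789).

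Reln was the most abundant member. It lies on the minus strand at chr5:21884454-22344702, and 1.04% of its exon bases lie under the antisense gene model Gm10475. Its level was 886, 1026 and 1245 TPM in UDP-glucose cultures, 994, 871 and 942 TPM in control cultures, 2566, 2910.1, 3345 and 3181 TPM in quiescent cells, and 1.70, 4.72 and 5.30 TPM in liver. Quiescent cells were above all cultures without overlap, and both kinds of culture overlapped. Between control cultures and quiescent cells 70% of all genes tested did not overlap. Reln ranked 39th in quiescent cells and was still 165th in control cultures. The log2 fold change was 9.34 ± 0.26 for quiescent cells over liver (SE; limma adjusted p = 4.49e-11) and -1.67 ± 0.10 for control cultures over quiescent cells (SE; limma adjusted p = 7.78e-07). For UDP-glucose over control it was 0.16 (limma, SE 0.12, adjusted p = 0.729).

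Ntf3 encodes neurotrophin-3, the ligand of TrkC. Its gene is on the minus strand at chr6:126101412-126166910. Its level was 24.3, 22.3 and 24.9 TPM in UDP-glucose cultures, 22.0, 22.7 and 25.9 TPM in control cultures, 61.8, 57.8, 59.1 and 82.3 TPM in quiescent cells, and 0.132, 0.108 and 0.0706 TPM in liver. The cultures of both kinds overlapped almost entirely and stood below every quiescent library. Non-overlap of control cultures and quiescent cells was seen for 70% of all genes tested. Ntf3 was 2.78-fold lower in mean TPM in control cultures than in quiescent cells, with a log2 fold change of -1.42 (limma, SE 0.13, adjusted p = 1.19e-05).

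Gfap encodes the intermediate filament of astrocytes and has long been used to mark quiescent stellate cells. Its position is chr11:102887336-102900912 on the minus strand. Its level was 0.862, 0.878 and 1.04 TPM in UDP-glucose cultures, 1.13, 1.33 and 0.921 TPM in control cultures, 18.8, 17.2, 14.9 and 17.1 TPM in quiescent cells, and 0.266, 0.0343 and 0.101 TPM in liver. Quiescent cells had the highest level by a wide margin, yet Gfap stood only 6641st among their 12263 genes above 1 TPM. Its log2 fold change was 3.99 ± 0.13 for quiescent cells over liver (SE; limma adjusted p = 1.81e-10) and -3.08 ± 0.13 for control cultures over quiescent cells (SE; limma adjusted p = 1.16e-07).

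The 4 members that fell in culture are shown with the 250 bases before their RefSeq starts, because all 4 were higher in quiescent cells than in liver and lower in control cultures than in quiescent cells. Sequences are from RefSeq on GRCm38.p6, 5′ to 3′ on the strand of the gene. RefSeq starts can differ from the ends of the GENCODE spans given above. The Gfap window and the downstream Ntf3 window lie inside those spans, and the Ngfr and upstream Ntf3 windows partly do. Capitals mark matches, on either strand, to any of 5 motifs. The letters searched for AP-1 sites were TGANTCA, where N is any base, and those for the shared core of cAMP response elements were TGACG. The GC box was searched as GGGCGG, the E box of basic helix-loop-helix factors as CACGTG, and the TATA box of core promoters as TATAAA.
Ngfr, chr11:95587699-95587948: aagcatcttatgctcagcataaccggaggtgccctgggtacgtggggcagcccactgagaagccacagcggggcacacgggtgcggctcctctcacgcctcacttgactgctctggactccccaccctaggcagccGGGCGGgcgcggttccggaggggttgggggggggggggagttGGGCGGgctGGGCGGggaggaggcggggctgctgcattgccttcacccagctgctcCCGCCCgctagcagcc
Reln, chr5:22344706-22344955: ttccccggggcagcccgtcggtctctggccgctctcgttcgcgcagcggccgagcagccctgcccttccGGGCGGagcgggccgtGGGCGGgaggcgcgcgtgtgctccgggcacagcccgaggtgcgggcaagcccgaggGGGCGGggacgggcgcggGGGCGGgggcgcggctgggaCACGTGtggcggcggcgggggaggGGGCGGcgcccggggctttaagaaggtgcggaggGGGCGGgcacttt
Ntf3, upstream start, chr6:126166745-126166994: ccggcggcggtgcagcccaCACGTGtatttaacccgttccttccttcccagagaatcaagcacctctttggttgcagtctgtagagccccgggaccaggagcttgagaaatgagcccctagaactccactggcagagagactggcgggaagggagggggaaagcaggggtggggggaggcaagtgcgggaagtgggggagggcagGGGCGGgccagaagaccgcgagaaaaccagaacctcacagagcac
Ntf3, downstream start, chr6:126164961-126165210: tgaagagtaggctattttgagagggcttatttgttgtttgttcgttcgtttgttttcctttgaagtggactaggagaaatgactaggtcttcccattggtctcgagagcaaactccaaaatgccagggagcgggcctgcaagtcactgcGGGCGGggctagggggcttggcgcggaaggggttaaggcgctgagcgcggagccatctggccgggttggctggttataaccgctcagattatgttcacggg
Gfap, chr11:102897201-102897450: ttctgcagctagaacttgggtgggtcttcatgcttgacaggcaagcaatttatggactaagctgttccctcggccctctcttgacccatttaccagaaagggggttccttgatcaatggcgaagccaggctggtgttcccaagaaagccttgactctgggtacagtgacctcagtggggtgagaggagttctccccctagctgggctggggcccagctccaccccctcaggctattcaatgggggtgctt
Ngfr held 4 GC boxes and Reln 6, in windows with a GC content of 70.4% and 80%. The Ntf3 windows had 1 GC box each, and an E box stood in the upstream Ntf3 window and in that of Reln. Gfap, at a GC content of 55.6%, matched none of the 5 motifs. No matches of different motifs overlapped in the member windows. GC boxes were present in 32.7% of 32851 mouse windows of the same length, E boxes in 6.02%, TATA boxes in 12.4%, TGACG in 17.8% and TGANTCA in 6.75%. These matches describe letters in the windows and were not related to the measured levels.

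Bdnf, brain-derived neurotrophic factor, is the ligand of TrkB. Its locus on the plus strand is chr2:109674700-109727007, a gene with many alternative first exons. Bdnf had 7.44, 9.67 and 8.51 TPM in UDP-glucose cultures, 2.94, 3.61 and 3.43 TPM in control cultures, 0.210, 0.144, 0.296 and 0.139 TPM in quiescent cells, and 0.218, 0.409 and 0.229 TPM in liver. The lowest UDP-glucose library was above the highest control library, and every control library was above every quiescent one. Of all genes tested, 16.3% did not overlap in the first of these comparisons and 70% in the second. Quiescent cells and liver overlapped. Mean Bdnf was 8.54 ± 1.11 TPM in UDP-glucose cultures and 3.33 ± 0.349 TPM in control cultures (SD, n = 3 each), a 2.57-fold ratio.

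The log2 fold change of Bdnf for UDP-glucose over control was 1.14 (limma, SE 0.15, adjusted p = 0.0244). It was higher in 3 of 3 UDP-glucose libraries than in any control, and 16.3% of all 12161 genes tested likewise had groups that did not overlap. The call was lost in several alternatives. The adjusted p was 0.101 with no filter on low values, and it lay between 0.0642 and 0.134 in the 5 fits that left out control replicate 1 or 3 or any single UDP-glucose replicate. Without control replicate 2 it was 0.0380. The log2 fold change itself stayed between 1.05 and 1.22 in those fits. The sum of 6 vascular smooth muscle markers also differed. It was 3430 to 3712 TPM in UDP-glucose cultures, 1932 to 1944 TPM in control cultures, 266 to 363 TPM in quiescent cells and 3.25 to 7.19 TPM in liver. Most of it in cultures was Tagln, at a mean of 2881 TPM with UDP-glucose and 1665 TPM in controls, and Acta2, at 680 and 264 TPM. Myh11 and Actg2 were also higher with UDP-glucose than in controls. Cnn1 overlapped between both kinds of culture, and Pln was at 0 in all cultured and quiescent libraries. The part of these markers in the Bdnf result was not tested. For control cultures over quiescent cells the log2 fold change of Bdnf was 1.85 (limma, SE 0.16, adjusted p = 9.79e-06), and the mean TPM was 16.9-fold higher in control cultures.

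Of the Bdnf exon bases, 14.4% lie opposite the antisense gene model Gm45346, and whether the bulk counting used strand is not stated, so reads of the pair cannot be told apart over that stretch. RefSeq has 7 Bdnf start windows, and gene-level TPM do not tell which of them was used. The second window matched TGANTCA once, and the third matched TGACG once. The stretch before the second start is shown because it is the one member window with a match to TGANTCA. That pattern leaves its central base open, and the match, TGAATCA, is not by itself an AP-1 site.
Bdnf, second start, chr2:109676782-109677031: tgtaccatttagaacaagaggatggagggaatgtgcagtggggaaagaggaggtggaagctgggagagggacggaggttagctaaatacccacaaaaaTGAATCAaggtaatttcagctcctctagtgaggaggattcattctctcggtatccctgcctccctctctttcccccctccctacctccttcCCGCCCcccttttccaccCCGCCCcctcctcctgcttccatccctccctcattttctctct
Capitals mark TGAATCA and 2 GC boxes read on the opposite strand.

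Ntrk3 encodes TrkC, the kinase receptor of neurotrophin-3, and lies on the minus strand at chr7:78175959-78738012. Its level was 3.64, 5.54 and 4.47 TPM in UDP-glucose cultures, 3.65, 4.21 and 3.68 TPM in control cultures, 0.811, 0.882, 0.650 and 0.534 TPM in quiescent cells, and 0.0298, 0.0575 and 0.0857 TPM in liver. The groups stood in that order, with overlap between both kinds of culture and none elsewhere. Between control cultures and quiescent cells 70% of all genes tested did not overlap either. Ntrk3 rose in control cultures, with a log2 fold change of 1.5 (limma, SE 0.16, adjusted p = 2.90e-05). The change with UDP-glucose was 0.18 (limma, SE 0.17, adjusted p = 0.783). Against liver Ntrk3 was under the filter, and without a filter its log2 fold change of 0.70 was below the fold minimum.

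Ntrk2, which encodes TrkB, the kinase receptor of Bdnf, was under the filter in every comparison. Its gene spans chr13:58806569-59133970 on the plus strand. Its highest value was 0.0464 TPM in UDP-glucose cultures, 0.137 TPM in control cultures, 0.616 TPM in quiescent cells and 0.297 TPM in liver. A single quiescent library, replicate 1, held that 0.616 TPM, and the other 3 had 0.0990 to 0.154 TPM.

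Nes encodes nestin, an intermediate filament of neural progenitors that is also found in endothelium and in stellate cells. The gene is at chr3:87971078-87980451 on the plus strand. Its level was 93.9, 114 and 94.1 TPM in UDP-glucose cultures, 66.4, 87.9 and 66.9 TPM in control cultures, 61.3, 83.2, 44.2 and 38.2 TPM in quiescent cells, and 0.139, 0.200 and 0.140 TPM in liver. UDP-glucose libraries all stood above control libraries, but the difference did not pass the test (log2 fold change 0.45 with SE 0.13, limma adjusted p = 0.273). Over all genes tested, 16.3% had groups that did not overlap in that comparison. Control cultures and quiescent cells overlapped, with a log2 fold change of 0.42 (limma, SE 0.24, adjusted p = 0.149). Quiescent cells were 5.57 ± 0.23 (SE) above liver on the log2 scale (limma adjusted p = 1.01e-09). The sum of endothelial markers was also higher in quiescent cells than in cultures (given above), and its part in the quiescent level of Nes was not tested.

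Ncam1, the neural cell adhesion molecule, was below the filter throughout. It lies on the minus strand at chr9:49502136-49798925, with 4.81% of its exon bases under the antisense model Gm11149. Its level was 0.137, 0.248 and 0.253 TPM in UDP-glucose cultures, 0.107, 0.150 and 0.187 TPM in control cultures, 1.01, 0.502, 0.873 and 1.02 TPM in quiescent cells, and 0.0782, 0.136 and 0.172 TPM in liver. Every quiescent library was above every other library, at a level of about 1 TPM or less. Among genes that passed the filter, 91.1% did not overlap between quiescent cells and liver, and 70% between control cultures and quiescent cells.

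Ntf5, another neurotrophin ligand, averaged 0.137 TPM or less in every group. Of the 8 receptors and co-receptors that are not members, 4 were tested in culture against quiescent cells. Sort1 and Sorcs2, which encode VPS10 family co-receptors for proneurotrophins, fell by 2.0 and 1.89 on the log2 scale. Nradd, a p75 homologue, rose by 1.22 on that scale, but by 0.94, under the fold minimum, after median-of-ratios rescaling. Sort1 had 0.345, 0.575 and 0.614 TPM in UDP-glucose cultures, 0.490, 0.885 and 0.626 TPM in control cultures, 8.14, 6.60, 6.33 and 2.81 TPM in quiescent cells, and 3.40, 3.42 and 3.04 TPM in liver. Any of the 4 tested in culture that were under 1 TPM in control cultures, as Sort1 was, passed the filter only through the quiescent libraries. Such a fall is a description with no weight of its own. Sorcs1 and Sorcs3 averaged at most 0.611 TPM in any group. Against liver 3 of 4 tested rose in quiescent cells, where 67.0% of all genes rose: Nradd by 2.40, Lingo1 by 2.05 and Sorcs2 by 1.93 on the log2 scale, but Lingo1 was at 0.93 after median-of-ratios rescaling and Nradd at 0.93 after quantile normalisation, both under the fold minimum. Sort1 changed sign under both rescalings in that comparison. Any of the 4 that were under 1 TPM in liver passed the filter only through the quiescent libraries.

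Of 19 genes of adaptors that bind p75 and the Trk receptors, 16 were tested. In control cultures against quiescent cells 2 of the 16 fell, where 13.2% of all genes fell, and none rose, where 18.6% did, with a median log2 fold change of 0.14 against 0.26 over all genes. Maged1, a p75-binding MAGE protein, fell by 1.16 and Gab1, a docking protein, by 1.58 on the log2 scale. Among the genes of proteases that cut proneurotrophins, Pcsk6 and Plau rose in culture by 2.58 and 1.68, and Pcsk5 fell by 1.53 on the log2 scale. Against liver Pcsk6 fell in quiescent cells by 2.42. Des, the stellate filament protein desmin, rose with UDP-glucose by 0.38 on the log2 scale (limma adjusted p = 0.0258), and that call was lost whenever any 1 library was left out, at adjusted p of 0.0570 to 0.145.

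The genes of the reelin receptors were low where Reln was highest. Lrp8, which encodes ApoER2, had 8.83, 13.1 and 10.0 TPM in UDP-glucose cultures, 10.1, 17.9 and 15.2 TPM in control cultures, 0.148, 0.185, 0.0270 and 0.0441 TPM in quiescent cells, and 0.102, 0.0360 and 0.0479 TPM in liver. It rose in control cultures against quiescent cells by 3.77 (limma, SE 0.20, adjusted p = 4.48e-07) on the log2 scale, where Reln fell. Lrp8 passed the filter only through the cultures where it is high, so its call is a description with no weight of its own. Vldlr averaged 1.89 TPM in UDP-glucose cultures, 1.33 TPM in control cultures, 0.0840 TPM in quiescent cells and 0.237 TPM in liver, and was under the filter outside the cultures. Of the 18 other genes of the reelin pathway, 15 were tested against liver and all 15 rose in quiescent cells, where 67.0% of all genes rose, at a median log2 fold change of 3.36 against 1.62 over all genes. Any of the 15 that were under 1 TPM in liver passed the filter only through the quiescent libraries. Their count is therefore a description with no weight of its own. Rap1a, a small GTPase gene named here after its values were seen, was no longer called after median-of-ratios rescaling (-0.015) or quantile normalisation (0.41).

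In control cultures against quiescent cells 2 of 16 tested reelin pathway genes rose and 6 fell, beside 18.6% and 13.2% of all genes, with a median log2 fold change of -0.25 against 0.26 over all genes. Lrp8, which passed the filter only through the cultures, and Fyn rose. Fyn, a kinase of reelin signalling that is named here after its values were seen, was under the fold minimum after median-of-ratios rescaling (0.81) and without quiescent replicate 4 (0.95). The largest falls were of Adamts4, Adamts14 and Adamts3, which encode secreted ADAMTS proteases, by 3.91, 2.63 and 2.29 on the log2 scale. Any of the 6 that were under 1 TPM in control cultures passed the filter only through the quiescent libraries. The count of 6 falls is therefore a description with no weight of its own. No gene of the list was called with UDP-glucose among 16 tested.

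**Figure D3:**
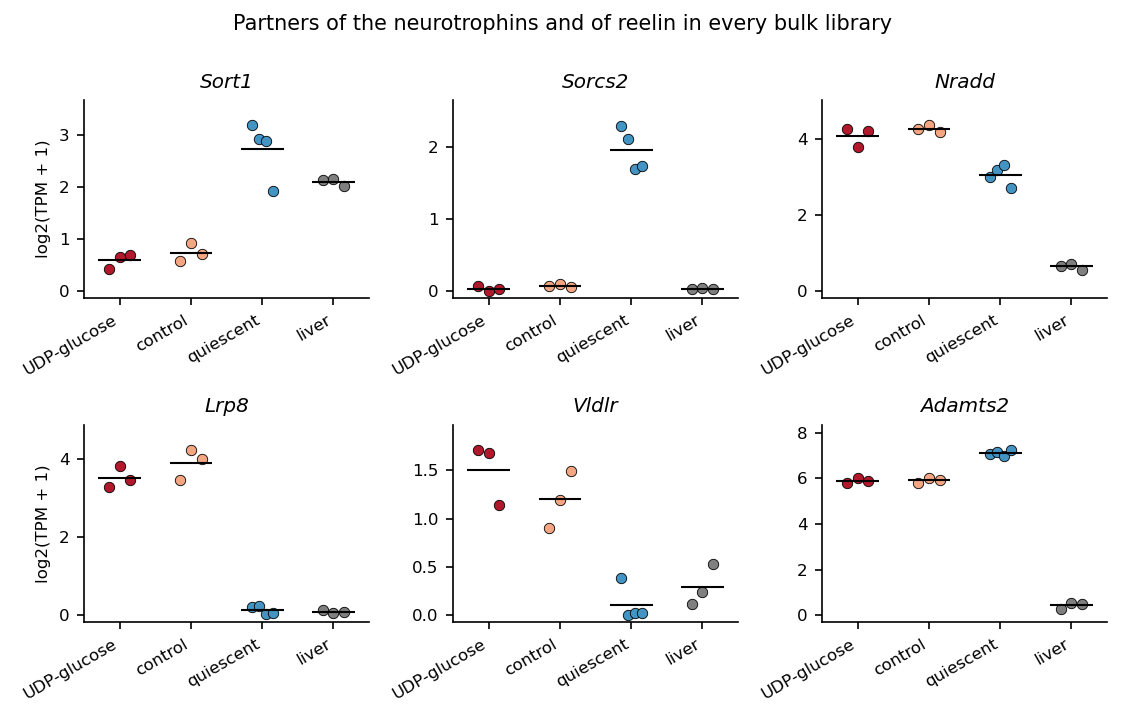
Level of 6 partner genes in each bulk library, as log2(TPM + 1) on separate vertical scales, with groups ordered as UDP-glucose cultures, control cultures, quiescent cells and whole liver; points are libraries and lines are group means. Lrp8 and Vldlr are highest in cultures, Sorcs2 and Adamts2 in quiescent cells, and Nradd is higher in both kinds of culture than in quiescent cells. Sort1 has its highest mean in quiescent cells, but a quiescent library lies below every liver library.

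Other lists of neural-type genes moved in both directions. Of the 9 astroglial genes besides Gfap, 4 were tested in control cultures against quiescent cells and all 4 fell, where 13.2% of all genes did: Sparcl1, a matrix protein secreted by astrocytes, by 2.05, Fabp7, a fatty acid-binding protein of radial glia, by 1.30, Gja1, the gap junction protein connexin 43, by 1.07, and Aldh1l1, a folate enzyme, by 1.01 on the log2 scale. Any of the 4 that were under 1 TPM in control cultures passed the filter only through the quiescent libraries. The count of 4 falls is therefore a description with no weight of its own. Gja1 was under the fold minimum without quiescent replicate 4 (-0.95). Aldh1l1 was under it without quiescent replicate 3 (-0.75), without control replicate 3 (-0.97) and after quantile normalisation (-0.94). Against liver, where 67.0% of all genes rose and 10.9% fell, 2 of 5 rose in quiescent cells (Sparcl1 and Gja1) and 2 fell (Aldh1l1 and the glutamate transporter gene Slc1a2). Of the intermediate filament genes besides Gfap and Nes, 3 were tested against liver (Vim, Des and Synm) and all 3 rose, beside the same 67.0%. Any of the 3 that were under 1 TPM in liver passed the filter only through the quiescent libraries. In culture Vim rose by 1.26, where 18.6% of all genes rose, but by 0.95 after median-of-ratios rescaling. Of 13 further neural adhesion and polysialic acid genes, 3 were tested in each comparison. Cadm1 rose in culture by 2.52, Cdh2 rose against liver by 3.82, and Alcam rose against liver by 1.74, which was 0.15 after median-of-ratios rescaling. In the GDNF family, Gfra1 and Nrtn fell in culture by 2.55 and 1.67. Either of them, if under 1 TPM in control cultures, passed the filter only through the quiescent libraries.

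Over the 13 libraries, the genes whose log2(TPM + 1) followed each abundant member most closely were, among 10375 genes averaging at least 5 TPM, Igfbp7, Fbln5 and Tceal9 for Reln, Nfkbiz, Fam171b and Nr4a3 for Ngfr, and Fgd1, 1700025G04Rik and Mapk8ip1 for Ntf3. For Gfap they were Papln, Heyl and Ecm2, and for Nes Zfp90, Fam118a and Socs5. Pearson correlations were between 0.996 and 0.999. They describe libraries that share tables, strains and culture by group, and so mostly the differences between groups.

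The single-cell library held 5063 barcodes, with a median of 1983 UMIs (unique molecular identifiers, counts of captured transcripts) per barcode. Of these barcodes, 4808 were kept. A cluster of 342 cells, 7.11% of cells, was stellate-like: 12 of its 50 leading genes were markers of stellate cells, and it had a median of 3153.5 UMIs per cell. The members and their pathway genes had no part in the clustering. There is 1 library and no replicate, so no test was made, and intervals below cover counting error only.

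Reln marked nearly every stellate-like cell. It had 1559 UMIs there, a level of 1361 CPM (UMIs of a gene scaled by the total of the class, exact Poisson 95% interval 1294 to 1430), and 322 of 342 cells had at least 1 UMI (94.2%, exact binomial 95% interval 91.1 to 96.4). Hepatocyte-like cells, which should lack Reln, had 21.6 CPM and a UMI in 5.30% of 491 cells, at a median of 1861 UMIs per cell. After thinning each cell to 1000 UMIs the shares were 72.1% of stellate-like and 1.27% of hepatocyte-like cells. Outside the stellate-like cells, named classes stood between 5.67 and 48.5 CPM. The level in stellate-like cells was 63.1 times that in hepatocyte-like cells.

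Ngfr was counted in fewer cells. It had 154 CPM in stellate-like cells (95% interval 133 to 179), with a UMI in 115 of 342 cells (33.6%, 95% interval 28.6 to 38.9; 17.4% after thinning). Sinusoidal endothelial-like cells had 1.52 CPM, and 0 of 491 hepatocyte-like cells had a UMI, which allows a share of cells with a UMI of up to 0.611%, the floor of 3 counts. Stellate-like cells held 83.9% of all Ngfr UMIs and 79.7% of all Reln UMIs. Most positive cells had a single Ngfr UMI (75 of 115), and the highest had 8.

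**Figure D4:**
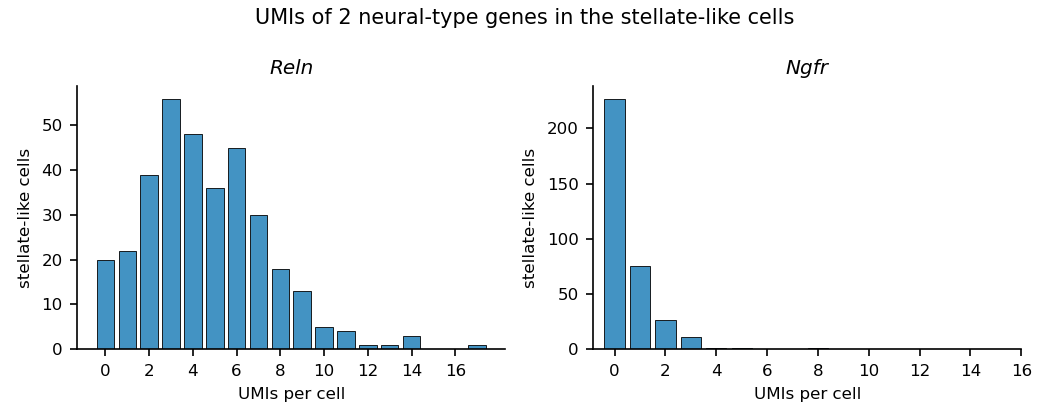
Number of UMIs per cell for Reln and Ngfr in the 342 stellate-like cells of the single-cell library; bars count cells. Reln is spread from 0 to 17 UMIs with 20 cells at 0, whereas 227 cells have no Ngfr UMI.

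Ntf3 and Nes were not restricted to stellate-like cells. Ntf3 had 53.2 CPM there (95% interval 40.7 to 68.4; a UMI in 15.2% of cells) and 43.4 CPM in vein endothelial-like cells (26.1 to 67.7), whose intervals overlap, against 13.2 CPM in sinusoidal endothelial-like cells and 1.39 CPM in hepatocyte-like cells. Nes stood at 29.7 CPM in stellate-like cells (20.6 to 41.5) and at 29.7 CPM in sinusoidal endothelial-like cells (24.6 to 35.6), and 117 of its 201 UMIs came from that endothelium. Hepatocyte-like cells had 1.39 CPM of Nes. Genes of the endothelium were counted in the stellate-like cells too: 51.2% of them had a UMI of Clec4g, a sinusoidal endothelial lectin, and the part of such RNA in their Nes and Ntf3 was not tested.

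Gfap was seen in few cells. Its 11 UMIs in stellate-like cells fell in 11 cells (3.22%, 95% interval 1.62 to 5.68), a level of 9.60 CPM (4.79 to 17.2), and 11 of the 14 Gfap UMIs of the library were in this class. Sinusoidal endothelial-like cells had none in 2109 cells, which allows a level of up to 0.762 CPM. Ncam1 had 3 UMIs, Ntrk2 2, and Bdnf and Ntrk3 1 each in stellate-like cells, at or under the 3 counts taken as the floor. Of the 9 Ntrk3 UMIs in all cells, 7 were in T cell-like cells, and of the 6 Bdnf UMIs, 4 were in hepatocyte-like cells.

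**Figure D5:**
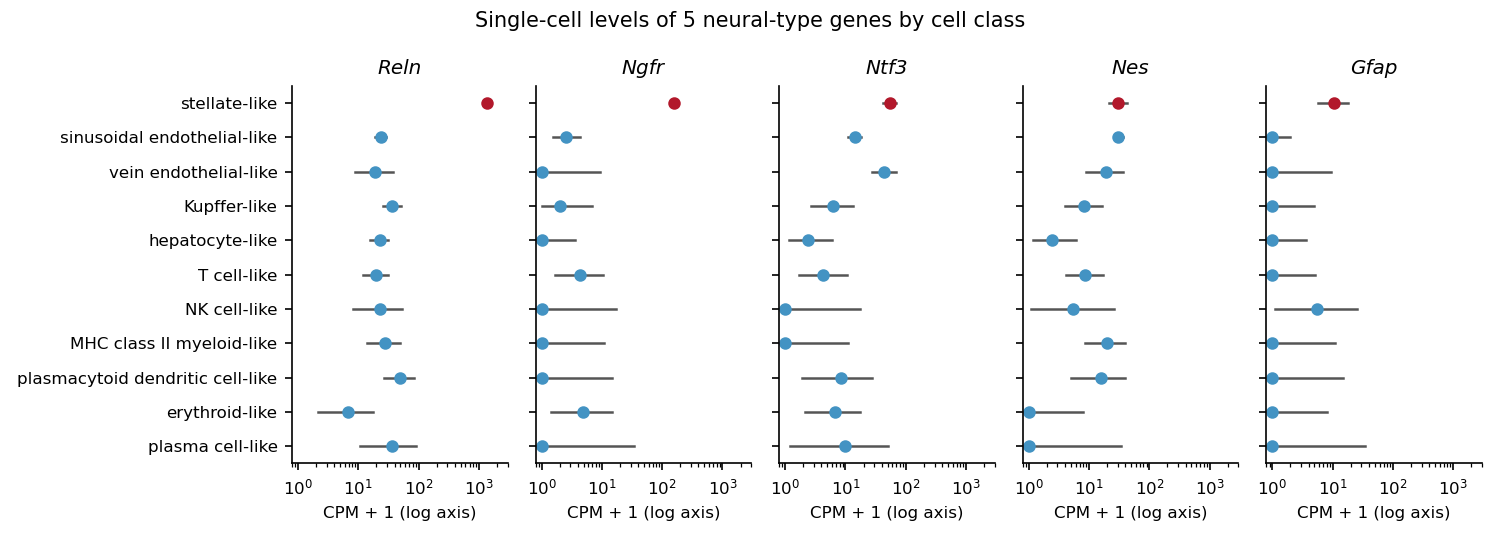
Level of 5 members per named cell class of the single-cell library, as CPM + 1 on a log axis, with exact Poisson 95% intervals; stellate-like cells are at the top in red. Reln and Ngfr stand above all other classes, Gfap is highest in stellate-like cells with intervals that overlap those of the smaller classes, Ntf3 is close in vein endothelial-like cells, and Nes is level with sinusoidal endothelial-like cells.

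A further 48 cells formed a cluster led by both stellate genes (Col14a1, Vipr1) and Kupffer cell genes (Cd5l, Clec4f), at a median of 3444.5 UMIs, and were left unnamed. Reln stood at 777 CPM and Ngfr at 93.0 CPM in them. No doublet caller was run. Joined to the stellate-like cells, they moved the share with a Reln UMI to 93.1% and that with an Ngfr UMI to 31.5%.

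Members were compared from cell to cell by whether Ngfr was counted. Of the 115 stellate-like cells with an Ngfr UMI, 93.0% also had Reln, against 94.7% of the 227 without. Ntf3 was seen in 16.5% of the cells with Ngfr and 14.5% of those without. Nes was seen in 5.22% of the cells with Ngfr (6 cells) and 11.5% of those without (26 cells). Cells with Ngfr had a median of 3347 UMIs and cells without it 3090.0.

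The same split was set against genes known to differ along the lobule in stellate cells, a list chosen with results of these data known. Igfbp3, a growth factor-binding protein of portal-side stellate cells, stood at 965 CPM in cells with Ngfr (95% interval 872 to 1064) and 400.5 CPM in cells without it (356 to 449). Il34, a cytokine, was at 245 against 125 CPM, and Rgs4, a regulator of G protein signalling, at 99.6 against 50.4 CPM. On the central side, Rspo3, a Wnt amplifier, was at 435 CPM in cells with Ngfr (374 to 504) and 689 CPM without (631 to 752), and Adamtsl2, a matrix protein, at 99.6 against 165 CPM. Rspo3 was also among the vein endothelial markers and was the first leading gene of the vein endothelial-like cluster. The part of such RNA in its level was not tested. Itgb3 on the portal side had overlapping intervals, as did Loxl1 and Spon2 on the central side. The retinoid gene Lrat stood at 790 CPM in cells with Ngfr and 774 CPM without. Cells with Ngfr differed from those without in other marker genes too: the stellate gene Colec11 stood at 4050.5 CPM (3858 to 4250) in cells with Ngfr and 3068 CPM (2942 to 3197) without, and the endothelial gene Clec4g at 467 CPM (403 to 537) with Ngfr and 608 CPM (552 to 667) without. Their part in the differences along the lobule list was not tested. Reln stood at 1208 CPM in cells with Ngfr (1104 to 1319) and 1447 CPM without (1361 to 1536).

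Partner genes were also measured in single cells. Lrp8 had no UMI in stellate-like cells, which allows up to 2.62 CPM, but had 78.3 CPM in plasmacytoid dendritic cell-like cells (95% interval 48.5 to 119.7). Vldlr and Dab1, the intracellular adaptor of reelin, had no UMI in any named class. Adamts2 stood at 151 CPM in stellate-like cells and at 1.27 CPM in sinusoidal endothelial-like cells. Sort1 was at 10.5 CPM in stellate-like cells, below the 22.4 CPM of sinusoidal endothelial-like cells.

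Defining markers of glia and neurons were looked for beside the members. In the stellate-like cells the Schwann cell genes Sox10, Cdh19 and Foxd3 and the neuronal genes Snap25, Syt1, Stmn2, Tubb3, Elavl4 and Nefl had no UMI, and S100b and Mbp had 3 and 2, at or under the floor. Rbfox3, the neuronal nuclear antigen NeuN, was counted in more cells, with 60 UMIs in 51 cells. In bulk, Mbp, a myelin gene, averaged 0.155 TPM in UDP-glucose cultures, 0.101 TPM in control cultures, 4.69 TPM in quiescent cells (0 to 11.8) and 0.102 TPM in liver.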

How the data were processed

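TPM were deposited by the authors as gene tables for 13 bulk libraries. Per the submitters' processing notes, kallisto 0.44.0 and bcl2fastq 2.19 were used, with builds GRCm38 and mm10; DESeq2 and Cell Ranger are also named there, without versions. Quiescent cells, liver and cultures stand in 3 separate tables. TPM keep no depth, so precision is given by replicate spread alone. The deposited single-cell matrix holds UMI counts for 5063 barcodes, per the file headers and values, and 12101368 UMIs in all. The members and gene lists were chosen with earlier results of these data known.

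Rows named as dates (26, at most 0.319% of TPM) were dropped, leaving 35171 of 35197 gene rows. Each comparison was fitted with limma 3.58.1 (R 4.3.3) on log2(TPM + 1), with a variance trend and Benjamini-Hochberg adjustment, over genes averaging at least 1 TPM in its libraries; tests were two-sided. Fold changes on this scale understate changes of low genes. Named non-members were the ligands and receptors, and up to 4 called genes with the largest change per list and comparison; some of these are not reported here. Alternatives were a pseudocount of 0.1, no filter, median-of-ratios or quantile scaling, and leaving out each library.

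Single cells were processed with scanpy 1.11.5 (Python 3.11.15): at least 500 UMIs and 200 genes, at most 20% mitochondrial UMIs, 2000 variable genes without members or pathway genes, 30 principal components, 15 neighbours and Leiden resolution 1, giving 22 clusters. A cluster was named when at least 3 fixed markers were among its 50 leading genes, at least 2 times those of the next type; this scoring was set after the clusters were seen. In all, 464 cells stayed unnamed. No doublet caller was run. Shares were also computed after thinning to 1000 UMIs, and a count of 0 was given an upper limit of 3 counts. Promoter windows came from RefSeq (GRCm38.p6), which held 14 windows for 7 of the 9 members. Gene positions are from GENCODE on GRCm38. The limma step was tested on simulated data.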

Additional observations from a re-analysis of the deposited data

Results flagged for a closer look

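In the 4 quiescent libraries, 5 of 69 genes examined had 1 library far from the others relative to the range of the group, 2 of them among the 9 members. Chance gives this in about 1 of 20 groups. Ntf3 stood at 82.3 TPM in quiescent replicate 4, against 57.8 to 61.8 TPM in the other 3 libraries, and its log2 fold change for control cultures over quiescent cells lay between -1.49 and -1.31 when any 1 library was left out. Ntrk2 stood at 0.616 TPM in quiescent replicate 1, against 0.0990 to 0.154 TPM in the others. Among partner genes, the proprotein convertase gene Pcsk6 stood at 4.86 TPM in quiescent replicate 4, against 1.83 to 1.95 TPM. The reelin receptor gene Vldlr was at 0.308 TPM in quiescent replicate 1, against 0 to 0.0149 TPM. Frs2, a Trk docking protein gene, was at 16.9 TPM in quiescent replicate 3, against 20.3 to 21.0 TPM.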

How the results depend on the processing

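No paired analysis was possible because the groups share no replicate numbers in the labels. For quiescent cells over liver, all 55 alternative values of the 5 members kept their direction and call, and for control cultures over quiescent cells all 77 values of 7 members did. For UDP-glucose over control, 60 of 69 values did. Bdnf lost the call in 6, with its direction kept and adjusted p-values of 0.0642 to 0.134, and Ntf3, which was not called, ranged between -0.025 and 0.088 when 1 library was left out. Sort1 in quiescent cells over liver was at -0.76 after median-of-ratios rescaling and -1.03 after quantile normalisation. The genes called over all features numbered 6490 after quantile normalisation for quiescent cells over liver, against 9847, and 30 with no filter for UDP-glucose over control, against 74. Leaving out 1 library gave 20 to 64 called genes in that comparison. The cause of these shifts was not tested. In the single-cell library the share of stellate-like cells with a Reln UMI was 90.1% at Leiden resolution 2 and 90.9% with members allowed in the clustering, and the other 43 of 45 shares stayed within their intervals. Joining the 48 mixed cells, an alternative chosen after seeing the data, gave 390 cells. Members near 1 TPM or with 3 UMIs or fewer are at the limit of both assays.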

Other observations

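Rbfox3, which encodes the neuronal nuclear antigen NeuN, was present in quiescent and in stellate-like cells. The other neuronal markers examined had no UMI in stellate-like cells and averaged at most 0.608 TPM (Snap25) in quiescent cells. In cultures Rbfox3 did not stand out, as Tubb3 averaged 0.699 TPM with UDP-glucose and 1.06 TPM in control cultures. Rbfox3 averaged 0.575 TPM in UDP-glucose cultures (0.414 to 0.803), 0.511 TPM in control cultures (0.395 to 0.594), 14.5 TPM in quiescent cells (at least 13.8) and 0.130 TPM in liver (0.0979 to 0.147). In the single-cell library it stood at 52.4 CPM in stellate-like cells (95% interval 40.0 to 67.4), and 14.9% of them had a UMI. It was also counted in sinusoidal endothelial-like cells (28.4 CPM), vein endothelial-like cells (25.1 CPM) and Kupffer-like cells (21.1 CPM), against 1.39 CPM in hepatocyte-like cells. Rbfox3 was singled out after its values were seen.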
